A study of Mus musculus with 8 samples.

Results

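The TNF superfamily was followed in mouse mammary tumors as the genes for its ligands, its receptors and the TRAF proteins and other adaptors that the receptors recruit. Members were found by gene symbol, as every gene whose symbol starts with Tnfsf or Tnfrsf together with Tnf, Lta, Ltb, Ltbr, Cd40, Cd40lg, Cd27, Cd70, Fas, Fasl, Edar, Relt, Ngfr, Tradd, Tnfaip3 and Traf1 to Traf6. This rule took 51 of the 35539 genes listed, and the 44 whose mean over the 8 tumors reached 0.5 TPM were reported. TPM is a gene's share of a tumor's transcripts after correction for transcript length, so that levels of different genes can be set side by side. The members nearest to the threshold were Tnfsf11 (0.531 TPM) and Edar (0.585 TPM) inside it and Lta (0.254 TPM) and Fasl (0.226 TPM) outside it.

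The tumors were bulk frozen pieces from age-matched mice, and each of the 2 genotypes gave 4 of them. Tumors 1 to 4 were Brca1f/f Trp53+/- (control) and tumors 5 to 8 were HMMR Tg/Tg Brca1f/f Trp53+/- (HMMR-Tg). According to the methods of the study, Blg-Cre, a recombinase driven by the promoter of a milk protein gene, inactivated floxed Brca1 in mammary epithelium in all mice and, in HMMR-Tg mice, also switched on human HMMR from the Rosa26 locus on both alleles. All mice were thus missing Brca1 in cells that had expressed Blg-Cre and carried a single intact copy of Trp53, and the comparison asks what differs in tumors that form with extra HMMR. The labels give no ages, the study describes the genotypes as similar in average time at diagnosis, and nothing says that the tumors are from separate mice, so that the spread behind each p-value is that between these samples alone.

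TNF ligands are membrane-bound or shed proteins that cluster their receptors. Receptors with a death domain can start cell death. Many receptors with or without that domain, the main TNF receptor Tnfrsf1a among them, act through TRAF proteins to switch on the transcription factor NF-kB. They do so either by a rapid canonical route or by a slower noncanonical route through NIK and RelB. In the mammary gland the family is best known for RANKL (Tnfsf11) and RANK (Tnfrsf11a), which carry the progesterone signal to luminal progenitor cells and drive the alveolar growth of pregnancy. In tumors its members are expressed by immune cells, by stroma and by the cancer cells themselves.

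Between genotypes 0 of 44 members passed the adjusted limma threshold, against 0.0543% of all genes tested and with 3 members at an unadjusted p under 0.05, and the main pattern lay in a single tumor. HMMR-Tg tumor 7 had the highest value of 19 of the 44 members (43.2%), where 14.3% of all genes tested were highest in that tumor. In it were the highest levels of the death receptor Fas (113 TPM), the decoy receptor Tnfrsf11b (299 TPM), the adaptor Traf1 (94.1 TPM), the NF-kB inhibitor Tnfaip3 (72.9 TPM) and the costimulatory receptors Tnfrsf4 (40.7 TPM) and Cd40 (37.8 TPM). Between genotypes the member with the lowest unadjusted p was Tnf itself, with 6.81 ± 7.77 TPM in controls and 21.1 ± 11.39 TPM with the transgene (SD, n = 4 each), followed by Traf1 and Tnfsf11.

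Facts of the whole series that bear on these values are few. Mouse Hmmr lay between 9.39 and 15.2 TPM in controls and between 13.0 and 20.2 TPM in HMMR-Tg tumors, but the IDs of the table are all of mouse genes, so this does not measure the human transgene. Luminal keratins marked all tumors as epithelial, with Krt8 between 351 and 1896 TPM and Krt18 between 350 and 1740 TPM. Tumors 1, 3 and 6 held the most RNA of skeletal muscle (111 to 376 TPM summed over 7 markers, against 13.0 to 41.5 TPM in the others), and counts were also taken without them. The sum of 5 endothelial markers was higher in all HMMR-Tg tumors (72.1 to 141 TPM) than in control tumors (49.9 to 60.5 TPM). Its exact permutation p was 0.0286, the smallest that 4 against 4 tumors allow. This p was the lowest among the lists of cell markers and was not adjusted for their number. Of the 5 markers, 3 had no overlap between genotypes (Pecam1, Cdh5 and Emcn). Tek in tumor 7 (0.788 TPM) lay below all control tumors (lowest 1.23 TPM). Kdr in tumor 6 (4.51 TPM) lay below control tumors 2, 3 and 4 (lowest of them 4.86 TPM). The 8 leukocyte markers summed to between 283 and 759 TPM in control and between 443 and 933 TPM in HMMR-Tg tumors, with the highest sum in tumor 7. In bulk tumors fewer cells of a type and less RNA per cell cannot be told apart.

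Promoter sequences are shown for 4 members. Of these, 3 had an unadjusted limma p under 0.05 (Tnf, Traf1 and Tnfsf11). Ltb was added because it was the 1 member with a match to the narrower NF-kB pattern given below, so that match was fixed by the choice. NF-kB patterns were searched because most receptors of the family signal to NF-kB, and Tnf and Ltb are well-known targets of it. Each is the run of 250 bases up to the transcription start, 5′ to 3′ on the strand of the gene, from RefSeq (GRCm38.p6), and capitals mark every match on either strand to a loose NF-kB pattern, GGG and CC with 5 bases of any kind between them. The windows are chr17:35194257-35194506 on the plus strand for Ltb, chr17:35202008-35202257 on the minus strand for Tnf, chr2:34961773-34962022 on the minus strand for Traf1 and chr14:78308044-78308293 on the minus strand for Tnfsf11.
Ltb: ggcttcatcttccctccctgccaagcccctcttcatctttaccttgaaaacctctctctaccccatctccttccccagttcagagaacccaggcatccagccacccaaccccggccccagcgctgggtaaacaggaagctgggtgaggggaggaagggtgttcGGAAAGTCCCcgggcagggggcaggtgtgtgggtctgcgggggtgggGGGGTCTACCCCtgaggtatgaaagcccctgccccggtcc
Tnf: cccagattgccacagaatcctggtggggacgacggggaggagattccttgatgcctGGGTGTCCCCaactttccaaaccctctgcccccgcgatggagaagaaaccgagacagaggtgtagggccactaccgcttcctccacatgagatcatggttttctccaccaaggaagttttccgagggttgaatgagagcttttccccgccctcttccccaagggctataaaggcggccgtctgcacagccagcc
Traf1: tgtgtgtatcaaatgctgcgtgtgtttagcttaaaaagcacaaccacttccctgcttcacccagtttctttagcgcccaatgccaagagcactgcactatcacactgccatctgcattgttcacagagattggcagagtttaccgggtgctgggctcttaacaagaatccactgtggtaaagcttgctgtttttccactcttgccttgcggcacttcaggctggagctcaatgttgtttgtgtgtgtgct
Tnfsf11: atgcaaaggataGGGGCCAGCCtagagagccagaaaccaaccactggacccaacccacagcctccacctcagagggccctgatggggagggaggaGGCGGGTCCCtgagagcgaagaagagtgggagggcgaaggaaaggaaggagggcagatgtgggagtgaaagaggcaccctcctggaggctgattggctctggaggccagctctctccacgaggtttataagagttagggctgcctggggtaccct

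In the Ltb window the first capital run also matches a narrower pattern, GGGA and TTTCC with 1 base of any kind between them, on the reverse strand and starts 87 bases before the transcription start. The Traf1 window held no match to either pattern. Over all members with a promoter in the RefSeq table (37 of 44), 27 (73%) held the loose pattern, against 48.7% of 27025 genes, and the median GC content was 56.4% in members and 52% in all genes. The narrower pattern, a form of the loose pattern chosen after the data were seen, was found in 1 member (2.7%), Ltb, and in 0.414% of all genes. Among the 17 members with a promoter that were highest in tumor 7, 13 (76.5%) held the loose pattern, a share near that of the members as a whole. These are counts of letters and not of bound sites, and matches overlap one another where G and C runs are long.

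**Figure D1:**
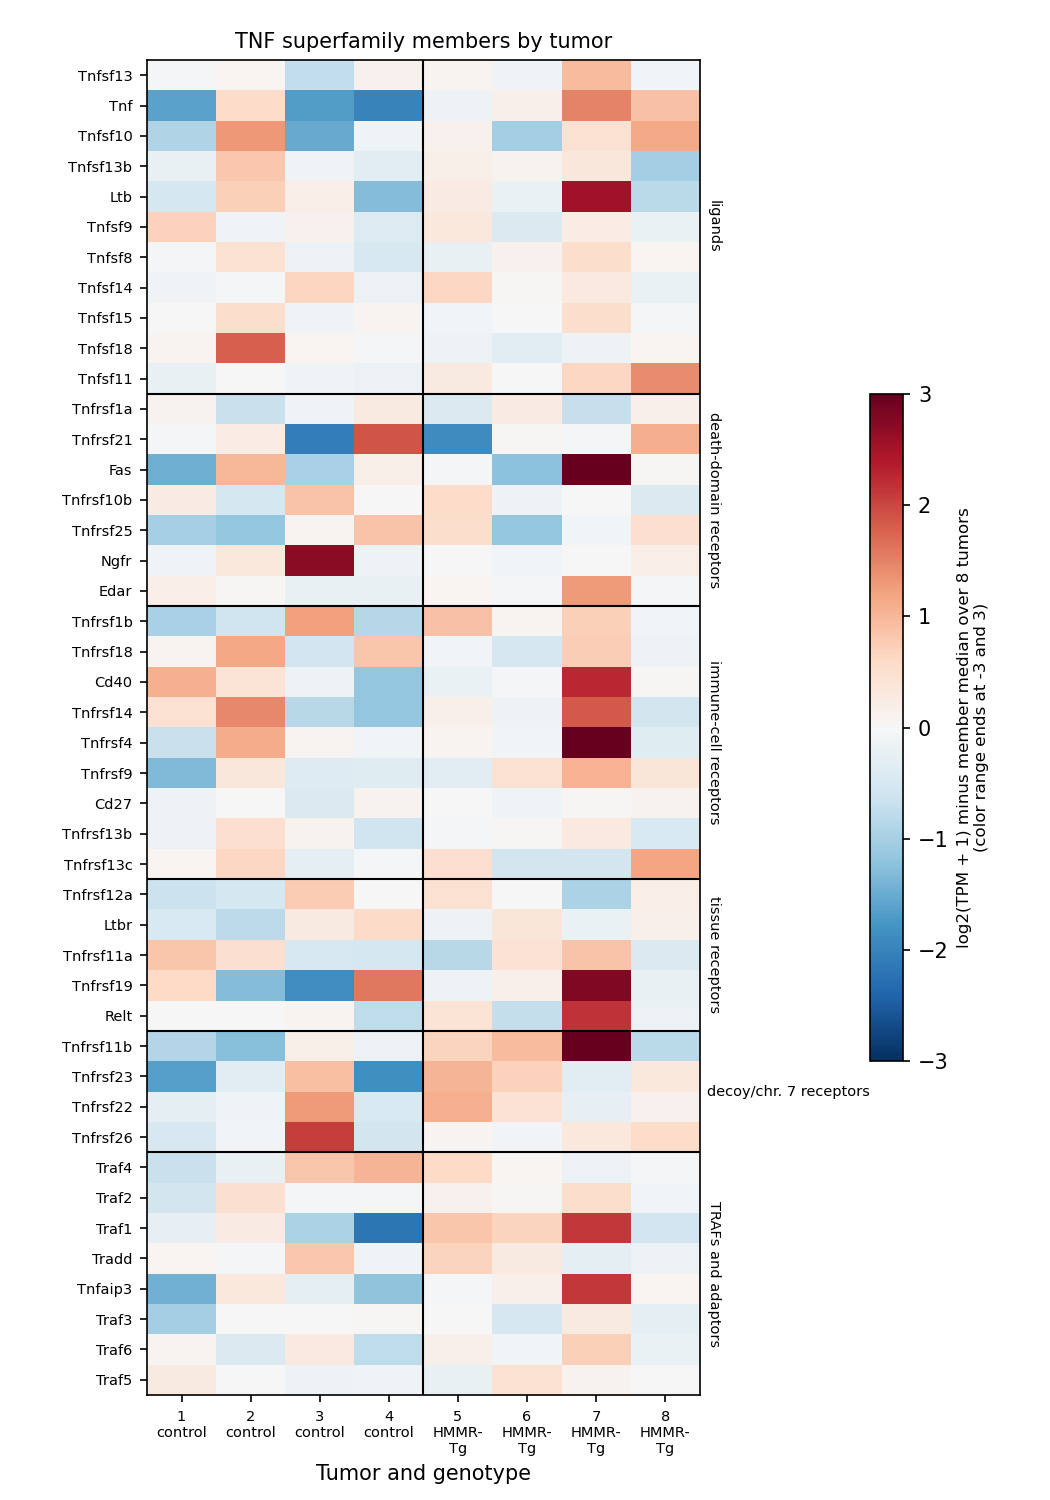
Level of each of the 44 members in each of the 8 tumors, as log2(TPM + 1) minus the median of that member over the tumors. Members are rows grouped by role and ordered by mean TPM, and tumor 7 shows the most dark red cells, among them Fas, Tnfrsf4, Tnfrsf11b, Ltb and Cd40.

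Among the ligands, 11 of 16 were reported. Tnf, the founding cytokine of the family and a product mainly of macrophages, stood at 3.35, 18.4, 3.16 and 2.29 TPM in tumors 1 to 4 and at 10.9, 13.7, 36.1 and 23.5 TPM in tumors 5 to 8. All HMMR-Tg tumors were above 3 of the control tumors, and control tumor 2 lay within the HMMR-Tg range. The difference was 1.78 on the log2(TPM + 1) scale (SE 0.59, 95% interval 0.46 to 3.10), with an unadjusted limma p of 0.0135, an adjusted p of 0.9998 and an exact permutation p of 0.0857. Without control tumor 2 the difference was 2.36 and the adjusted limma p 0.447.

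Tnfsf11, which encodes RANKL, was low throughout, at 0.0478, 0.210, 0.106 and 0.0770 TPM in control tumors 1 to 4 and at 0.458, 0.227, 0.878 and 2.24 TPM in HMMR-Tg tumors 5 to 8. It was the single member whose genotypes did not overlap. It reached the reporting mean only through the HMMR-Tg tumors (mean 0.951 TPM, against 0.110 TPM in controls), so this separation cannot be counted as support, and the lowest HMMR-Tg tumor (6) exceeded the highest control tumor (2) by little and most of the mean came from tumor 8. The difference was 0.71 on the log2(TPM + 1) scale (SE 0.30, 95% interval 0.04 to 1.39), with an unadjusted limma p of 0.0407, an adjusted p of 0.9998 and an exact permutation p of 0.0286. Without tumor 8 it was 0.43, with a pseudocount of 0.1 in place of 1 it was 1.99 (unadjusted limma p 0.0216), and with a pseudocount of 5 it was 0.21 (0.0667).

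Ltb, the membrane anchor of lymphotoxin, stood at 2.08, 6.32, 4.15 and 0.815 TPM in tumors 1 to 4 and at 4.27, 2.85, 24.5 and 1.53 TPM in tumors 5 to 8. Tumor 7 was 3.88 times the next tumor and the other HMMR-Tg tumors lay inside the control range, so that the difference of 0.66 (SE 0.71) turned to -0.03 without tumor 7. Ltb, Tnf and Lta are neighbours on chromosome 17 (mm9), with Ltb at chr17:35331384-35333265 and Tnf at chr17:35336326-35338952. Lta, which pairs with Ltb, was under the reporting threshold and was likewise highest in tumor 7, at 0.923 TPM.

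Tnfsf13, which encodes the B cell survival factor APRIL, stood at 14.7, 16.3, 8.81 and 16.9 TPM in tumors 1 to 4 and at 16.4, 14.4, 30.8 and 14.7 TPM in tumors 5 to 8, and was the ligand with the highest mean (16.6 TPM). Apart from tumors 3 and 7 its values lay close together, and the difference was 0.37 (SE 0.32). Its relative Tnfsf13b, which encodes BAFF, stood at 9.66, 20.6, 10.6 and 8.87 TPM and at 13.0, 12.3, 14.8 and 5.15 TPM in the same order, highest in control tumor 2 and lowest in HMMR-Tg tumor 8. Its difference was -0.13 (SE 0.38).

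Tnfsf10, which encodes the death ligand TRAIL, stood at 5.07, 26.9, 2.96 and 9.31 TPM in control tumors and at 11.5, 4.63, 14.6 and 23.9 TPM in HMMR-Tg tumors, and its genotypes overlapped almost wholly (difference 0.50, SE 0.63). Low ligands with a tumor that stood apart within its own genotype were Tnfsf14, Tnfsf15 and Tnfsf18. Tnfsf14, or LIGHT, a ligand of Ltbr, stood at 0.384, 0.454, 1.35 and 0.317 TPM in control and at 1.30, 0.530, 0.814 and 0.293 TPM in HMMR-Tg tumors (difference 0.10, SE 0.28), with tumors 3 and 5 as the highest. Tnfsf15, or TL1A, an endothelial cytokine, stood at 0.501, 1.16, 0.393 and 0.589 TPM in control and at 0.409, 0.496, 1.14 and 0.438 TPM in HMMR-Tg tumors (difference -0.04, SE 0.24), with tumors 2 and 7 together at the top. Tnfsf18, the ligand of the T cell receptor GITR, stood at 0.339, 3.41, 0.319 and 0.224 TPM in control and at 0.147, 0.0275, 0.133 and 0.316 TPM in HMMR-Tg tumors (difference -0.61, SE 0.40). In control tumor 2 it was 10.1 times the next tumor, and the difference fell to -0.17 without that tumor. The remaining reported ligands, Tnfsf8 (0.855 to 2.69 TPM, median 1.58) and Tnfsf9 (2.21 to 5.98 TPM, median 3.33), ligands of the lymphocyte receptors CD30 and 4-1BB, differed by 0.18 and -0.09.

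The receptors with a death domain were reported in full, 7 of 7, and no genotype difference among them had an unadjusted limma p under 0.05. Tnfrsf1a, the widely expressed main receptor of TNF, stood at 121, 69.8, 103 and 136 TPM in tumors 1 to 4 and at 82.9, 132, 68.3 and 124 TPM in tumors 5 to 8, and was the second-highest member by mean level (105 TPM). Tumors 2 and 7 were the lowest, and no tumor was more than 1.99 times another. The difference was -0.09 (SE 0.29, 95% interval -0.73 to 0.56), so that a genotype difference of more than 0.73 in either direction lay outside the interval.

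Fas, the receptor of the death ligand FASL and also a target of NF-kB, stood at 4.00, 26.3, 6.01 and 14.6 TPM in control and at 12.5, 4.91, 113 and 13.1 TPM in HMMR-Tg tumors. Tumor 7 was 4.29 times the next tumor, which was control tumor 2, and the difference of 0.77 (SE 0.87) turned to -0.09 without tumor 7. Its ligand Fasl stayed under the threshold, between 0.0301 and 0.497 TPM. Edar, the ectodysplasin receptor of skin appendages, was low, at 0.580, 0.404, 0.173 and 0.167 TPM in control and at 0.415, 0.314, 2.30 and 0.328 TPM in HMMR-Tg tumors, and tumor 7 was 3.96 times the next tumor. Its difference was 0.36 (SE 0.32) and 0.03 without tumor 7.

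Tnfrsf21, or death receptor 6, was among the members with the widest spread that was not tied to tumor 7, at 49.95, 60.2, 11.38 and 191 TPM in tumors 1 to 4 and at 13.0, 52.2, 49.7 and 110 TPM in tumors 5 to 8. It was lowest in control tumor 3 and HMMR-Tg tumor 5 and highest in control tumor 4, and its interval ran from -2.06 to 1.64 around a difference of -0.21. Ngfr, the low-affinity neurotrophin receptor and a marker of nerve and myoepithelium, was near 0 except in control tumor 3, at 0.138, 0.545, 6.98 and 0.116 TPM in control and at 0.244, 0.163, 0.219 and 0.406 TPM in HMMR-Tg tumors. Its difference was -0.66 (SE 0.57) and 0.0036 without tumor 3. Tnfrsf10b, the mouse receptor of TRAIL, ranged from 11.1 to 30.3 TPM (median 16.5, difference -0.15), and Tnfrsf25, a receptor of T cells, from 0.607 to 5.55 TPM (median 2.61, difference 0.26).

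Receptors known mainly from immune cells were reported for 9 of 11. Of the 9, 8 had the higher mean log2(TPM + 1) in the HMMR-Tg group, Tnfrsf13b by 0.0043, against 49.1% of all genes. The median difference was 0.35, with no unadjusted limma p under 0.05. Without tumor 7 the differences of Cd40 (-0.11), Tnfrsf4 (-0.23), Tnfrsf14 (-0.15) and Tnfrsf13b (-0.11) also lay below 0, beside that of Tnfrsf18 (-0.63). Those of Tnfrsf1b (0.60), Tnfrsf9 (0.60), Tnfrsf13c (0.29) and Cd27 (0.11) stayed above 0. Tnfrsf1b, the second TNF receptor, stood at 10.4, 13.9, 51.3 and 11.5 TPM in tumors 1 to 4 and at 40.5, 22.9, 35.7 and 20.1 TPM in tumors 5 to 8. All HMMR-Tg tumors were above control tumors 1, 2 and 4, while control tumor 3 was the highest of all. The difference of 0.70 (SE 0.48) was 1.21 without tumor 3, where the adjusted limma p was 0.544.

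Cd40, which licenses B cells, dendritic cells and macrophages, stood at 16.1, 9.83, 6.29 and 2.64 TPM in control and at 6.04, 6.98, 37.8 and 7.28 TPM in HMMR-Tg tumors. Tumor 7 was 2.35 times the next tumor, control tumor 1, and the remaining HMMR-Tg tumors sat within the control range. The difference of 0.47 (SE 0.63) turned to -0.11 without tumor 7. Tnfrsf4, or OX40, a costimulatory receptor of activated T cells, stood at 2.21, 9.95, 4.40 and 3.82 TPM in control and at 4.39, 3.80, 40.7 and 2.98 TPM in HMMR-Tg tumors, with tumor 7 at 4.10 times the next tumor. Its difference of 0.56 (SE 0.73) turned to -0.23 without tumor 7.

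Tnfrsf18, or GITR, lies beside Tnfrsf4 on chromosome 4 and did not share that pattern. It stood at 11.0, 24.3, 6.56 and 19.1 TPM in tumors 1 to 4 and at 9.61, 6.96, 17.8 and 9.12 TPM in tumors 5 to 8, with control tumors 2 and 4 above tumor 7, and its difference was -0.38 (SE 0.42). Tnfrsf13c, the BAFF receptor of B cells, stood at 0.873, 1.79, 0.469 and 0.753 TPM in control and at 1.56, 0.240, 0.232 and 3.09 TPM in HMMR-Tg tumors, lowest in tumor 7 and highest in tumor 8 (difference 0.06, SE 0.42). The others were Tnfrsf9, or 4-1BB (1.94 to 14.1 TPM, median 6.51, difference 0.82), Tnfrsf14, or HVEM (2.32 to 25.5 TPM, median 6.50, difference 0.35), Cd27 (2.48 to 4.04 TPM, median 3.70, difference 0.13) and Tnfrsf13b, or TACI (1.65 to 4.65 TPM, median 3.01, difference 0.0043). For Tnfrsf9 all HMMR-Tg tumors were above the control median and the exact permutation p was 0.0571. Cd27 was the steadiest member, with the highest tumor at 1.63 times the lowest.

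T cell markers summed to 30.3 TPM in tumor 7, close to the 28.9 TPM of control tumor 2, against 7.74 to 13.9 TPM in the other tumors. The 6 B cell markers summed to 3.81 TPM in tumor 7 and to 19.7 TPM in tumor 2, and Pax5 was at 0.0064 TPM in tumor 7. Macrophage markers summed to 1701 TPM in tumor 7 and to 2011 TPM in tumor 2. The 5 neutrophil markers had their lowest sum in tumor 7, at 31.7 TPM against 83.0 to 498 TPM in the other tumors. The 8 leukocyte markers summed to 933 TPM in tumor 7 and to 759 TPM in tumor 2, and the 5 dendritic cell markers to 47.5 and 52.2 TPM, with 4 of the 5 highest in tumor 7. Of the lymph node list, summing to 281 TPM in tumor 7 and to 6.71 TPM in tumor 2, Cr2 and Madcam1 made up nearly all in tumor 7. The share of any cell type in the levels of the members was not tested.

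Receptors found in epithelium and stroma were reported for 5 of 5. Tnfrsf12a, or FN14, the receptor of TWEAK and a gene of injured and growing tissue, had the highest level of all members, at 199, 218, 532 and 311 TPM in tumors 1 to 4 and at 432, 317, 163 and 363 TPM in tumors 5 to 8. Control tumor 3 was the highest and tumor 7 the lowest, with a difference of 0.04 (SE 0.38, 95% interval -0.82 to 0.90). Its ligand Tnfsf12 was not analysed here.

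Ltbr, the lymphotoxin beta receptor, which starts the noncanonical NF-kB route, stood at 43.5, 33.9, 72.6 and 88.5 TPM in control and at 53.7, 76.9, 51.4 and 66.1 TPM in HMMR-Tg tumors, with no tumor apart from the rest (difference 0.14, SE 0.31). Tnfrsf11a, which encodes RANK, stood at 19.8, 15.3, 7.35 and 7.12 TPM in control and at 5.57, 14.8, 20.2 and 7.68 TPM in HMMR-Tg tumors. Its 4 highest values, those of tumors 1, 2, 6 and 7, were spread evenly over the genotypes, and the difference was -0.07 (SE 0.46). The mean level of RANK over the 8 tumors was 12.2 TPM and that of RANKL 0.531 TPM.

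Tnfrsf19, or TROY, a receptor of developing epithelium and stem cells, stood at 5.82, 0.825, 0.231 and 12.5 TPM in control and at 3.08, 3.99, 29.8 and 2.84 TPM in HMMR-Tg tumors. The highest tumor was 129 times the lowest, the widest range of any reported member, and within HMMR-Tg tumor 7 stood alone (difference 0.89, SE 0.88, and 0.17 without tumor 7). Relt, a receptor of lymphoid tissue, stood at 4.59, 4.67, 4.98 and 2.31 TPM in control and at 6.51, 2.44, 24.5 and 3.98 TPM in HMMR-Tg tumors, with tumor 7 at 3.76 times the next tumor (difference 0.60, SE 0.57, and 0.01 without tumor 7).

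Decoy receptors bind ligands without signalling. Tnfrsf11b, which encodes osteoprotegerin, the decoy of RANKL and TRAIL, stood at 18.04, 13.5, 38.9 and 30.2 TPM in tumors 1 to 4 and at 54.9, 66.9, 299 and 19.1 TPM in tumors 5 to 8. HMMR-Tg tumors 5, 6 and 7 were above all control tumors, tumor 8 was within the control range, and tumor 7 was 4.47 times the next tumor. The difference was 1.52 (SE 0.71, 95% interval -0.07 to 3.11) with an exact permutation p of 0.114, and it was 0.81 without tumor 7.

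The mouse decoy receptors Tnfrsf22 and Tnfrsf23 and their neighbour Tnfrsf26 lie together on chromosome 7 (mm9, chr7:150793568-150871777). Tnfrsf23 stood at 5.43, 15.1, 36.4 and 4.64 TPM in tumors 1 to 4 and at 39.9, 31.6, 15.2 and 24.1 TPM in tumors 5 to 8, and Tnfrsf22 at 9.50, 10.5, 29.7 and 8.34 TPM and 25.5, 16.3, 9.80 and 13.0 TPM in the same order. The pair shared its highest tumors, 3, 5 and 6, and tumor 7 did not stand apart. Tnfrsf23 differed by 1.16 (SE 0.59, 95% interval -0.16 to 2.47) and Tnfrsf22 by 0.25 (SE 0.43). Transcripts of Tnfrsf22 and Tnfrsf23 are 93.5% identical over 3267 aligned bases, against 74.1% for Tnfrsf22 and Tnfrsf26, so reads may have been divided between the pair and the level of each is uncertain. Tnfrsf26 ranged from 0.925 to 10.8 TPM (median 1.80, difference -0.02), with its highest value in tumor 3.

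**Figure D2:**
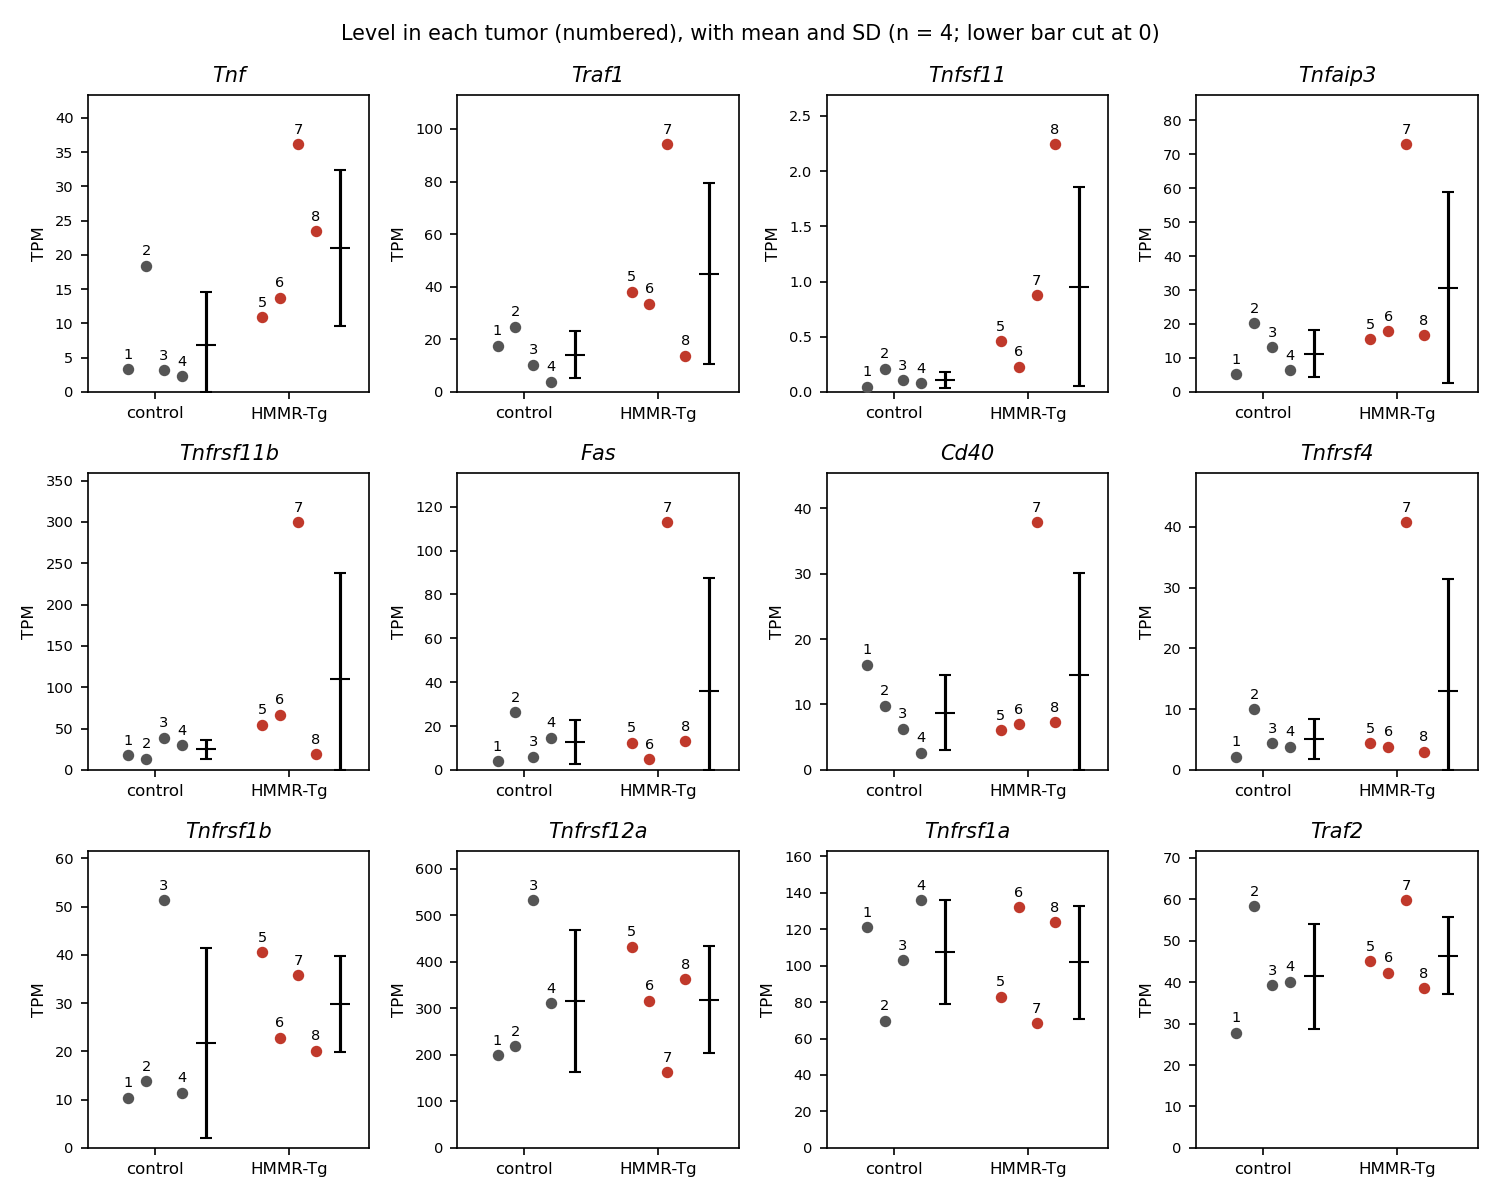
TPM of 12 members in each tumor, with the tumor's number above each point and a bar for the mean and SD of 4 tumors at the right of each group. Tumor 7 is the highest point for Tnf, Traf1, Tnfaip3, Tnfrsf11b, Fas, Cd40, Tnfrsf4 and Traf2 and the lowest for Tnfrsf12a and Tnfrsf1a, and Tnfsf11 is the panel whose groups do not overlap.

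The TRAF proteins and adaptors carry the signal on from the receptors and were reported for 8 of 8. Traf1, which is itself induced by NF-kB and is expressed mainly in activated cells, stood at 17.6, 24.9, 10.4 and 3.87 TPM in tumors 1 to 4 and at 38.1, 33.6, 94.1 and 13.8 TPM in tumors 5 to 8. Tumors 5, 6 and 7 were above all control tumors and tumor 8 lay within their range. The difference was 1.54 (SE 0.63, 95% interval 0.13 to 2.95), with an unadjusted limma p of 0.0355, an adjusted p of 0.9998 and an exact permutation p of 0.0857. It was 1.09 without tumor 7 (unadjusted limma p 0.101) and 1.07 without control tumor 4 (0.1001).

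Tnfaip3, or A20, the deubiquitinase that ends TNF signalling, stood at 5.28, 20.3, 13.2 and 6.36 TPM in control and at 15.5, 17.95, 72.9 and 16.6 TPM in HMMR-Tg tumors. Control tumor 2 was above tumors 5, 6 and 8, and tumor 7 was 3.59 times the next tumor. The difference was 1.22 (SE 0.56, 95% interval -0.04 to 2.47) and 0.70 without tumor 7.

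The other adaptors varied less. Traf2, the adaptor of the TNF receptors, stood at 27.8, 58.3, 39.3 and 40.2 TPM in control and at 45.1, 42.3, 59.7 and 38.6 TPM in HMMR-Tg tumors, with tumors 2 and 7 level at the top (difference 0.19, SE 0.26, 95% interval -0.39 to 0.77). Traf3, which holds the noncanonical route in check by marking NIK for breakdown, stood at 8.52, 18.4, 18.6 and 18.8 TPM in control and at 18.2, 12.7, 22.2 and 15.1 TPM in HMMR-Tg tumors, with control tumor 1 alone at the bottom (difference 0.12, SE 0.31). Traf4, an adaptor of epithelium first found in breast cancer, had the highest mean of the class (78.4 TPM), at 40.1, 55.1, 116 and 132 TPM in control and at 98.6, 66.9, 56.9 and 61.8 TPM in HMMR-Tg tumors. It was highest in control tumors 3 and 4 and lowest in control tumor 1 (difference -0.14, SE 0.38). Traf5 (4.07 to 7.11 TPM, median 4.91), Traf6 (7.82 to 23.4 TPM, median 14.01) and Tradd (15.6 to 34.99 TPM, median 19.4) differed by 0.08, 0.35 and -0.05.

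Members with the highest mean TPM were Tnfrsf12a (317), Tnfrsf1a (105), Traf4 (78.4), Tnfrsf11b (67.6), Tnfrsf21 (67.2), Ltbr (60.8) and Traf2 (43.9), receptors and adaptors rather than ligands. The 7 members under 0.5 TPM were the ligands Cd40lg, Cd70, Tnfsf4, Fasl and Lta and the receptors Tnfrsf8 and Tnfrsf17, all known from activated lymphocytes or plasma cells. Several of these were listed at 0 in some tumors, and they entered no test. For 32 of the 44 reported members the highest tumor was at least 3 times the lowest, and the median ratio was 6.10.

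Over all members, 0 of 44 passed an adjusted limma p of 0.05 between genotypes, where 9 of 16565 genes tested did (0.0543%), and the lowest adjusted p of a member was 0.9998. An unadjusted p under 0.05 was reached by 3 members higher in HMMR-Tg (6.82%, against 1.71% of all genes) and by 0 lower (against 1.78%). The genotypes did not overlap for 1 member higher in HMMR-Tg (2.27%, against 1.12% of all genes) and for 0 lower (against 1.19%). Tnfsf11, Edar, Tnfsf18 and Ngfr had a mean under 0.5 TPM in a single genotype and passed the filter through the other. Among the 40 members at or above it in both, 2 had an unadjusted p under 0.05, 0 did not overlap and 29 were higher on average with the transgene. The mean log2 value was higher in HMMR-Tg tumors for 31 members (70.5%, against 49.1%), and the median difference was 0.19, against -0.01 over all genes. Without tumor 7 the count was 26 members and the median 0.07. Beside these counts, all 8 leukocyte markers and all 5 endothelial markers were also higher on average in the HMMR-Tg group, with median differences of 0.36 and 0.67, and their part in the counts was not tested.

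**Figure D3:**
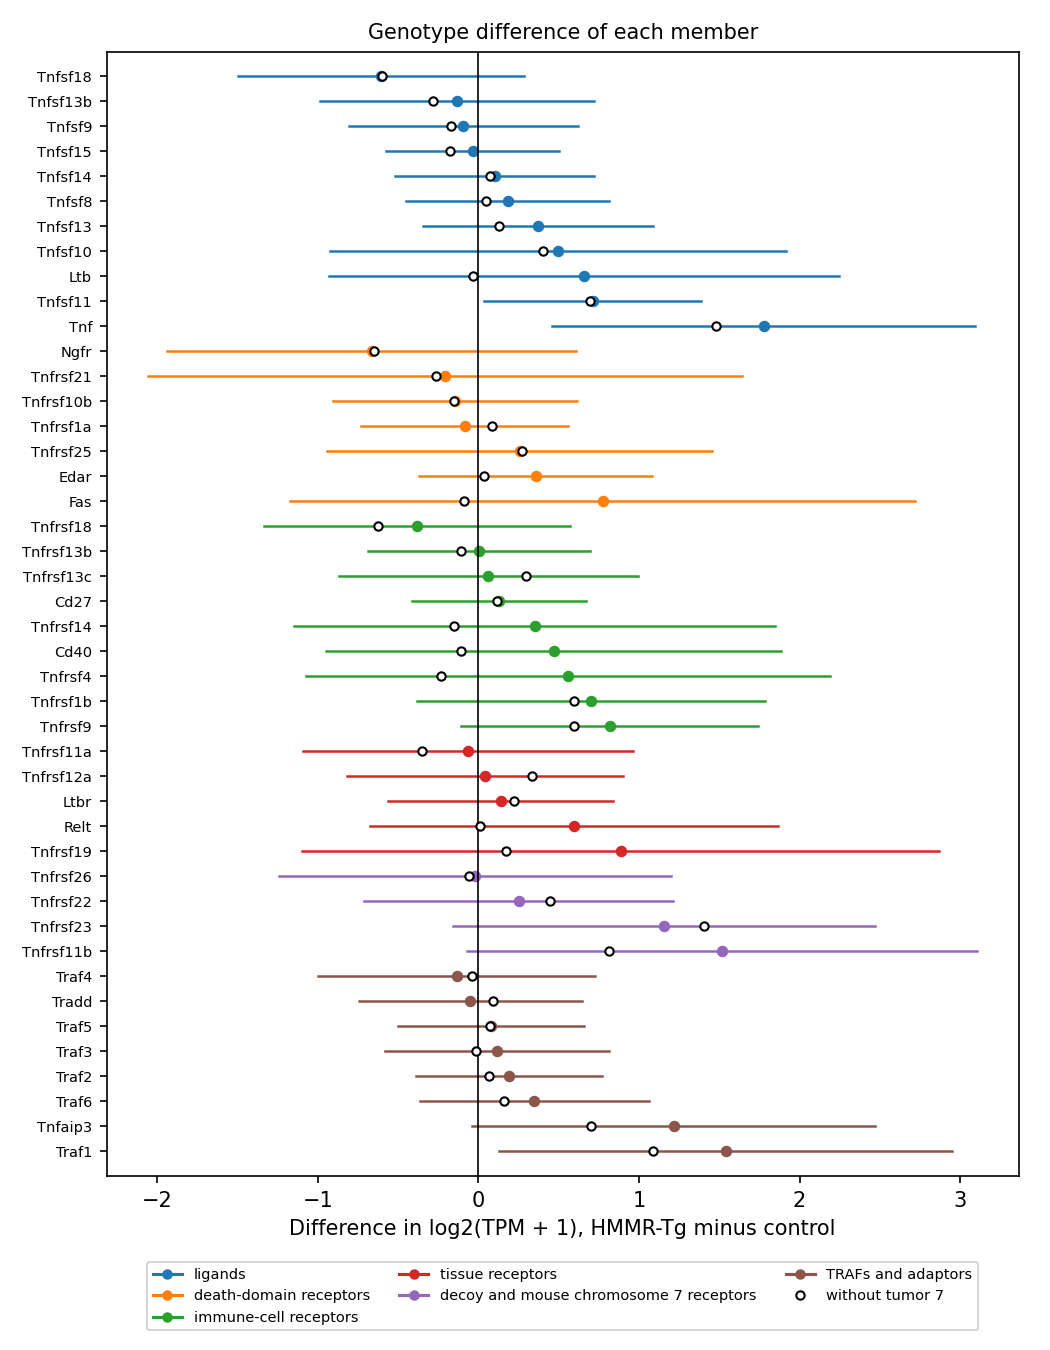
Difference of each member between genotypes in log2(TPM + 1), HMMR-Tg minus control, with the 95% interval from limma as a line and the color giving the role. Open circles give the difference without tumor 7; the intervals of Tnf, Tnfsf11 and Traf1 lie above 0, and the open circles of 9 members cross 0, those of Fas, Cd40, Ltb, Tnfrsf4, Tnfrsf14, Traf3 and Tnfrsf13b downward and those of Tnfrsf1a and Tradd upward.

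Tumor 7 was next compared with the other 7 tumors, as a description of a tumor picked for its values. Of the 19 members highest in it, 10 (22.7% of the 44) were at least 2 times the next tumor, against 2.38% of all genes, and the number at least that far ahead in any other tumor was 0 to 2. Edar and Tnfsf11 reached the reporting mean only with tumor 7 included, and of the other 42 members 18 were highest in it and 9 by at least 2 times. By role the tumor was the highest for 5 of 8 TRAFs and adaptors, 3 of 5 receptors of epithelium and stroma, 4 of 9 immune-cell receptors, 4 of 11 ligands, 2 of 7 death-domain receptors and 1 of 4 decoy and chromosome 7 receptors. The median deviation of the members in tumor 7 from their own median over the other 7 tumors was 0.54 on the log2(TPM + 1) scale, against 0.00 for all genes. With quantile normalization, median-of-ratios scaling or rescaling, counted after the data were seen, 17 members were highest in tumor 7 and 10 of them by at least 2 times.

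**Figure D4:**
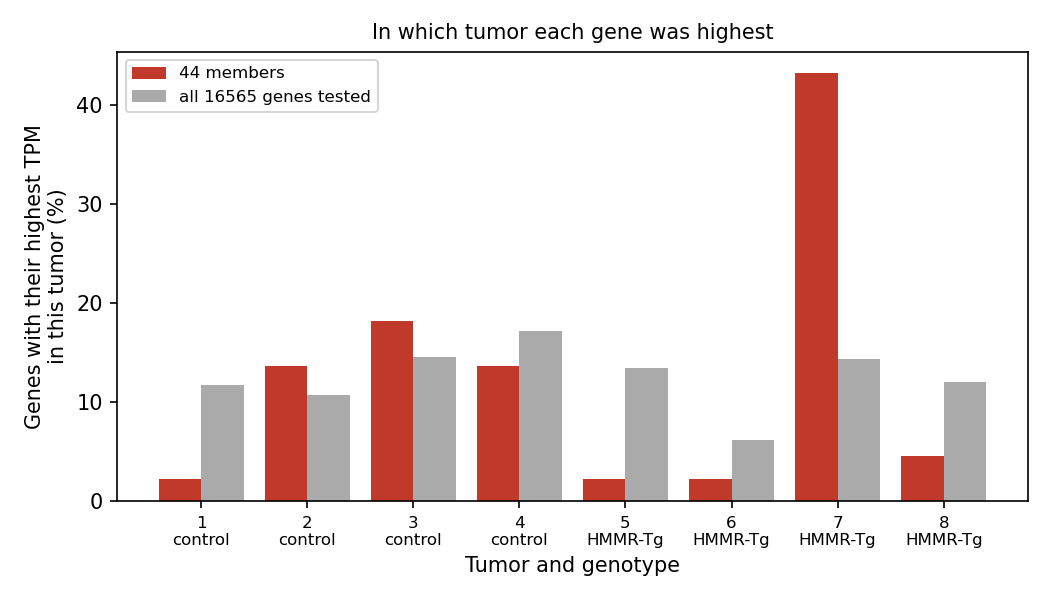
Share of the 44 members and of all 16565 genes tested that had their highest TPM in each of the 8 tumors. Tumor 7 holds 43.2% of the members and 14.3% of all genes, while control tumor 1 and HMMR-Tg tumors 5 and 6 each hold 2.27% of the members.

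Genes of TNF receptor signalling that are no members, downstream mediators for the most part with a few that control ligand shedding, were given by a list of 37, all tested. Of these, 26 were higher on average with the transgene, against 49.1% of all genes tested, and 0 passed the adjusted limma threshold, against 0.0543%. In tumor 7, 15 (40.5%) had their highest value, against 14.3% of all genes. The median difference was 0.09, against -0.01 over all genes. The highest differences were those of the NF-kB inhibitors Nfkbia (1.18, SE 0.66) and Nfkbie (0.84, SE 0.52) and of the ubiquitin ligase Birc3 (0.79, SE 0.63), all themselves targets of NF-kB. Nfkbia stood at 1011 TPM in tumor 7 against 63.6 to 287 TPM in the others, Nfkbie at 90.5 against 10.2 to 40.9 TPM, and Birc3 at 216 against 21.97 to 140 TPM. All 3 genes were thus highest in tumor 7, but Birc3 was only 1.5 times the next tumor there, against 3.5 times for Nfkbia.

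The lowest differences were those of the deubiquitinase Cyld (-0.44, SE 0.48) and of the kinase partners Tab3 (-0.34, SE 0.23) and Tab1 (-0.29, SE 0.22). Cyld, which removes the ubiquitin chains that TRAF2 and other adaptors build and so restrains NF-kB, stood at 4.79 TPM in tumor 7 against 20.4 to 27.8 TPM in the other 7 tumors. The lowest of the others was 4.25 times its level in tumor 7, and without tumor 7 the genotype difference of Cyld was 0.12. Tank, a TRAF-binding adaptor, was the 1 gene of the 37 whose genotypes did not overlap, against 383 of all 16565 genes tested. It stood at 56.9 ± 6.67 TPM in controls and 105 ± 55.8 TPM with the transgene (SD, n = 4 each). Tank was picked for this separation, so its exact permutation p of 0.0286 adds no support, and its adjusted limma p was 0.9998. It was also highest in tumor 7, at 186 TPM.

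The last comparison set each member beside the leukocyte content of the tumors, since many members are expressed by immune cells. The leukocyte score, the mean log2(TPM + 1) of 8 markers, ran from 4.92 in control tumor 4 to 6.46 in tumor 7, and correlations over the 8 tumors were computed for 44 members. The Pearson r was positive for 33 members with a median of 0.37, and 0 of 44 passed an adjusted exact permutation p of 0.05 (lowest 0.0688), where 9 had an unadjusted p under 0.05. By Spearman rho 2 members passed, Ltb and Tnfsf13b, each with a rho of 0.93 (exact permutation p 0.0022, adjusted 0.0491). The correlations were not computed for genes outside the family. Whether these counts exceed those of other genes was therefore not tested.

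Traf1 had the highest r, 0.91 (exact permutation p 0.0031, adjusted 0.0688), with a rho of 0.83 (0.0154, adjusted 0.160). Without tumors 4 and 7, which lay farthest from the median score, its r was 0.65. Tnfrsf13b, the TACI receptor of B cells and macrophages, had an r of 0.90 (exact permutation p 0.0026, adjusted 0.0688) and a rho of 0.90 (0.0046, adjusted 0.0669), and kept an r of 0.86 without those 2 tumors. Ltb had an r of 0.86 (exact permutation p 0.0089, adjusted 0.0786) and 0.73 without them, and Tnfsf13b an r of 0.70 (0.0580, adjusted 0.255) and 0.90 without them.

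Tnf had an r of 0.71 (exact permutation p 0.0427, adjusted 0.209) and a rho of 0.62 (0.115, adjusted 0.389). Its r was 0.30 without the 2 tumors and 0.59 without tumor 7 alone. Leaving out the 2 most distant scores narrows their range, so the lower r cannot show what the relation rested on. Cd40 had an r of 0.74 (exact permutation p 0.0417, adjusted 0.209) and a rho of 0.52 (0.197, adjusted 0.481). Its r was -0.06 without the 2 tumors and 0.59 without tumor 7 alone. In the other direction stood Tnfrsf1a, with an r of -0.73 (exact permutation p 0.0390, adjusted 0.209) and a rho of -0.76 (0.0368, adjusted 0.180), and -0.50 without the 2 tumors.

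**Figure D5:**
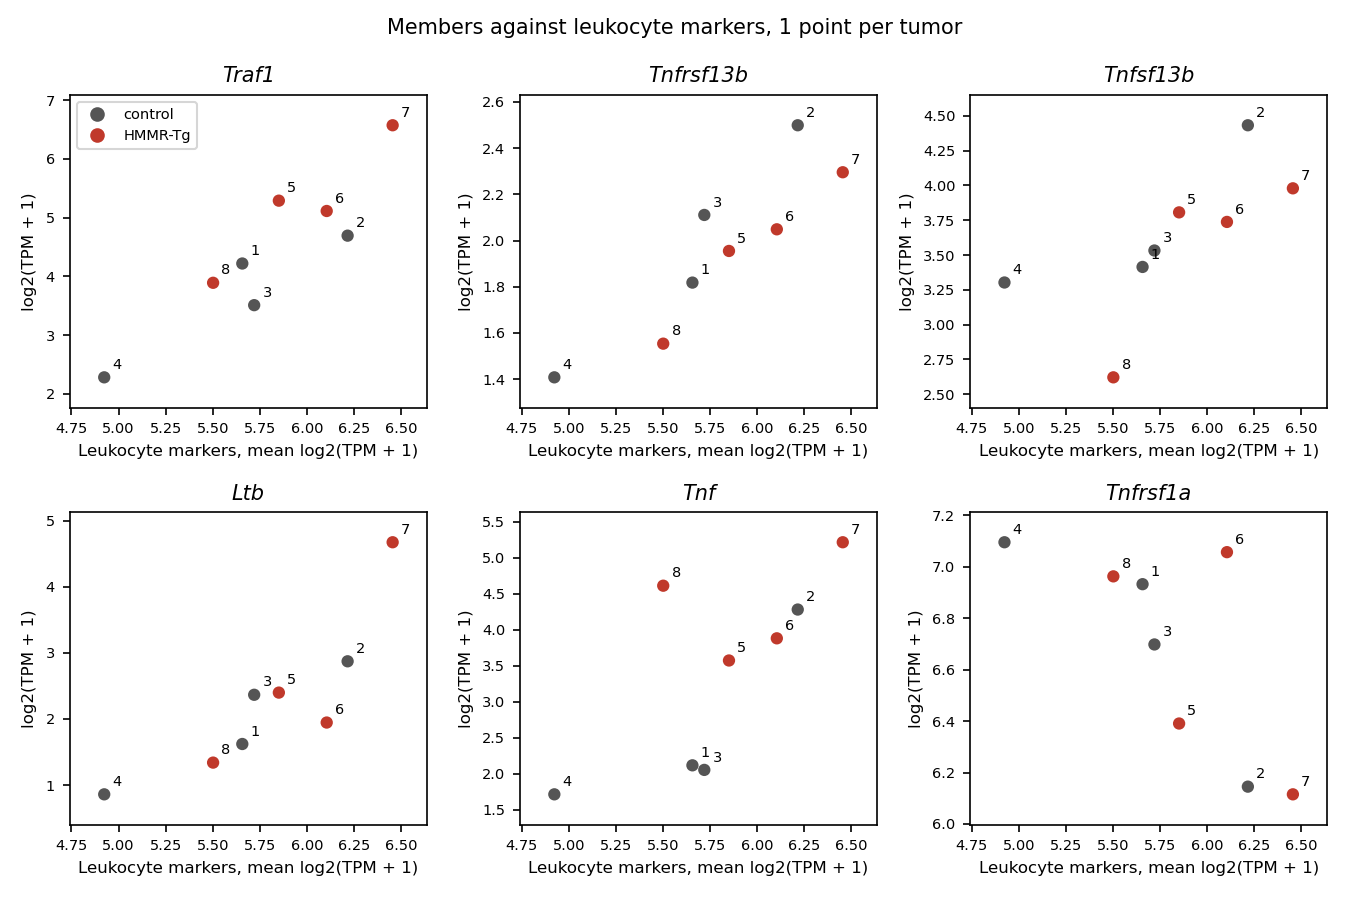
Level of 6 members in log2(TPM + 1) against the leukocyte score, the mean log2(TPM + 1) of 8 leukocyte markers, with a numbered point for each of the 8 tumors. Tnfrsf13b follows the score in most tumors (r 0.90), Tnf in HMMR-Tg tumor 8 lies well above the other tumors of like score, and Tnfrsf1a runs the other way (r -0.73).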

How the data were processed

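RNA was measured in 8 bulk frozen mouse mammary tumors, 4 per genotype, and the genotype of each was read from the title of its label. The authors deposited a single table of gene-level TPM values, computed per tumor and not scaled between tumors. The columns sum to between 994000.9 and 994984.0. Since TPM values do not keep the depth, counting intervals and detection limits are not given. The sources differ on how the values were made: the methods of the study name TRIzol, Kallisto and tximport, whereas the labels name an RNeasy kit and the submitters' processing notes STAR 2.4.0f1, SAMtools 0.1.18 and bedtools. The build is mm9 in each, and which route gave the table was not settled. The study tested counts with DESeq2, and counts were not used here.

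Symbols and mm9 coordinates came from GENCODE M1 and a RefSeq table (25388 of 35539 IDs matched). Tnfsf12 and Tnfsfm13 were not analysed here. The members and gene lists were chosen with earlier results of these data known. For the genotype difference, log2(TPM + 1) of the 16565 genes whose mean reached 0.5 TPM was fitted in limma 3.58.1 under R 4.3.3 with a mean-variance trend, Benjamini-Hochberg adjustment over all these genes, a threshold of 0.05 and 95% intervals, and the script was tested on simulated data. Fold changes on this scale understate those of low genes. Single values were compared by a two-sided exact permutation test (70 arrangements, smallest p 0.0286), and correlations by exact pairings (40320), adjusted over 44 members. All tests were two-sided.

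Values in every tumor were given for members with an unadjusted p under 0.05 or no overlap, the 3 highest of each role, a preset list of well-known members and members with an outlying tumor (32 in all), and pathway genes by counts with the 3 highest and 3 lowest differences. Promoters came from RefSeq (GRCm38.p6), and only the 250 bases before the start were searched. Transcripts were aligned with Biopython 1.88. Python 3.11.15 with scipy 1.17.1, numpy 2.4.6 and pandas 2.3.3 did the rest, and matplotlib 3.10.9 drew the plots. The alternatives tried were a pseudocount of 0.1 or 5, a minimum mean of 1 or 5 TPM or none, quantile normalization, median-of-ratios scaling, rescaling without mitochondrial, milk, antibody and hemoglobin genes, robust moderation, moderation without the trend, array weights, leaving out each tumor, and leaving out tumors 1, 3 and 6.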

Additional observations from a re-analysis of the deposited data

Results flagged for a closer look

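In 13 of 88 groups of 4 tumors, a single tumor stood far from the other 3 of its genotype. Distances were taken on the log2(TPM + 1) scale. The nominal rate of the rule is about 1 in 20 groups, but it holds for independent groups, and all members were measured in the same tumors. The share of all genes flagged by this rule was not computed, so an excess among the members was not tested. Of the 13 flags, 7 were HMMR-Tg tumor 7, each with the highest value. They were Cd40 (37.8 TPM, others of the genotype 6.04 to 7.28), Tnfaip3 (72.9 TPM, others 15.5 to 17.95), Tnfrsf4 (40.7 TPM, others 2.98 to 4.39), Tnfrsf19 (29.8 TPM, others 2.84 to 3.99), Tnfsf13 (30.8 TPM, others 14.4 to 16.4), Edar (2.30 TPM, others 0.314 to 0.415) and Tnfsf15 (1.14 TPM, others 0.409 to 0.496). Edar reached the reporting mean only with this tumor included.

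Among control tumors, tumor 2 was high for Tnf (18.4 TPM, others 2.29 to 3.35) and Tnfsf18 (3.41 TPM, others 0.224 to 0.339). Tumor 3 was high for Ngfr (6.98 TPM, others 0.116 to 0.545) and Tnfsf14 (1.35 TPM, others 0.317 to 0.454). Relt was low in tumor 4 (2.31 TPM, others 4.59 to 4.98) and Traf3 was low in tumor 1 (8.52 TPM, others 18.4 to 18.8).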

How the results depend on the processing

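No member passed the adjusted threshold under any of 20 alternatives, and the lowest adjusted p of a member over all of them was 0.447 (Tnf, without tumor 2). The number of members with no overlap, 1 in the main analysis, was 0 with means of at least 1 or 5 TPM, where 39 and 31 members were tested and Tnfsf11 was left out by the filter, 6 without tumors 1, 3 and 6, where fewer tumors were compared, and between 1 and 4 without each tumor in turn. It was also 0 among the 40 members with a mean of at least 0.5 TPM in both genotypes, an alternative chosen after the data were seen. The number with a higher mean in HMMR-Tg tumors lay between 26 and 35 without each tumor. Tnfrsf13c turned to -0.14 with a pseudocount of 0.1 and to -0.0074 with array weights. Tnfrsf12a turned to -0.0081 with quantile normalization and to -0.0087 with rescaling. Without tumors 1, 3 and 6, Tnfsf10 turned to -0.0016, Traf2 to -0.041 and Traf3 to -0.019, and the number of all genes called went from 9 to 0. The cause of these shifts was not tested. Leaving out each tumor in turn gave ranges on both sides of 0 for 16 of the members given in every tumor: Cd40 -0.11 to 0.81, Fas -0.089 to 1.33, Ltb -0.035 to 1.08, Ltbr -0.094 to 0.36, Ngfr -0.94 to 0.0036, Tnfrsf11a -0.35 to 0.21, Tnfrsf12a -0.14 to 0.34, Tnfrsf13c -0.28 to 0.29, Tnfrsf1a -0.28 to 0.086, Tnfrsf21 -0.90 to 0.42, Tnfrsf4 -0.23 to 0.90, Tnfsf13b -0.28 to 0.17, Tnfsf14 -0.045 to 0.29, Tnfsf15 -0.18 to 0.10, Traf3 -0.14 to 0.24 and Traf4 -0.44 to 0.12. Tnf kept an unadjusted limma p under 0.05 without each single tumor, with 0.137 without tumors 1, 3 and 6, while those of Traf1 and Tnfsf11 went up to 0.101 and 0.0841. Tnfsf11 was at 0.0576 with array weights and 0.0667 with a pseudocount of 5, and Traf1 at 0.0510 without a filter. No paired analysis was possible because the tumors of the genotypes share no replicate numbers. TPM keeps no depth, so the precision of members near 0.5 TPM is unknown.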

Other observations

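Further genes that stood apart in HMMR-Tg tumor 7, chosen after their values were seen, are given as values with no test. The chemokine gene Ccl20 stood at 1432 TPM in tumor 7 and between 1.04 and 5.43 TPM in the other 7 tumors. Spib, which encodes a transcription factor of B cells, plasmacytoid dendritic cells and, downstream of RANK, of intestinal M cells, stood at 362 TPM against 0.397 to 2.94 TPM. Aire, the regulator of tissue antigens in thymic medullary epithelium, where RANK signalling induces it, stood at 60.1 TPM against 0.252 to 3.93 TPM. Cr2, a complement receptor of B cells and follicular dendritic cells, stood at 240 TPM against 0.0423 to 0.568 TPM. The adhesion genes Madcam1 (39.8 TPM against 0.0868 to 2.55 TPM) and Icam1 (345 TPM against 7.48 to 44.5 TPM) showed the same tumor at the top.

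Markers of cells in which some of these genes are known were mixed in tumor 7. Of the B cell markers, Cd79b was highest there (2.25 TPM, others 0.525 to 1.77 TPM), while Ms4a1 (0.438 TPM), Cd79a (0.198 TPM), Jchain (0.791 TPM) and Pax5 (0.0064 TPM) were not. Of the 5 dendritic cell markers, 4 were highest there, Zbtb46 (12.8 TPM, others 1.70 to 6.52 TPM), Siglech (2.45 TPM, others 0.151 to 0.978 TPM), Flt3 (0.985 TPM, others 0.105 to 0.495 TPM) and Xcr1 (0.762 TPM, others 0.101 to 0.315 TPM), and Itgax was at 30.5 TPM, within the range of the others. Of the 6 lymph node markers, which include Cr2 and Madcam1, the other 4 were at 0.840 TPM or below. RANKL (Tnfsf11) was at 0.878 TPM in tumor 7 and RANK (Tnfrsf11a) at 20.2 TPM, the latter level with control tumor 1 (19.8 TPM). The 7 luminal epithelial markers were mixed as well. Their sum was lowest in tumor 7 (4004 TPM, others 5205 to 12190 TPM), but it takes in the milk gene Csn3 (3.69 TPM, others 412 to 8405 TPM). Without Csn3 the sum of tumor 7 would not be the lowest. Krt19 (51.4 TPM, others 76.2 to 602 TPM) and Elf5 (60.3 TPM, others 90.02 to 297 TPM) were also lowest there, while Epcam was highest (1924 TPM, others 477 to 1536 TPM). Krt8 (827 TPM, others 351 to 1896 TPM), Krt18 (944 TPM, others 350 to 1740 TPM) and Kit (194 TPM, others 39.5 to 581 TPM) lay within the range of the others. The part of any cell type in these values was not tested.

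Of the NF-kB genes of the noncanonical route, Nfkb2 (321 TPM against 44.5 to 87.4 TPM) and Relb (99.5 TPM against 16.7 to 49.9 TPM) were also highest in this tumor. So were Rela (114 TPM against 55.6 to 79.5 TPM) and Rel (11.1 TPM against 2.77 to 7.58 TPM), so that this was not particular to the noncanonical route. Nfkb1 (105 TPM, others 77.1 to 122 TPM) and the kinase gene Chuk (58.9 TPM, others 29.2 to 70.6 TPM) lay within the range of the others. Birc2, a ubiquitin ligase that TRAF2 recruits, was at 165 TPM against 14.7 to 43.9 TPM. Beside it on chromosome 9, Mmp7 was at 63.2 TPM against 0.185 to 13.2 TPM, whereas Yap1 was at 66.5 TPM, within the range of the others (30.6 to 394 TPM).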
